A study of Mus musculus with 24 samples.

Results

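miR-208, miR-208b and miR-499 are microRNAs encoded inside myosin heavy chain genes, and they were measured here in mouse soleus with a raised level of a peroxisome proliferator-activated receptor (PPAR). They were picked by assay name (mmu-miR-208, mmu-miR-208b and mmu-miR-499) and made up 3 of the 584 microRNA assays read by real-time PCR. Across assays, 268 could be tested, among them miR-499 and miR-208b. The soleus is a calf muscle with many slow fibres, and it was sampled in 12 male mice at 12 weeks of age. There were 4 groups of 3: MCK-PPARa mice, which carry a muscle-specific PPARa transgene, their wild-type littermates (NTGa), MCK-PPARb mice, which carry a muscle-specific PPARb transgene, and their wild-type littermates (NTGb). The MCK (muscle creatine kinase) promoter is active in differentiated muscle fibres. The number of founder lines is not given in the sources used here. The study asked how microRNAs differ between each transgenic line and its own non-transgenic mice.

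As background, the myosin heavy chain is the motor of the thick filament, and its isoforms set how fast a fibre contracts. Myh6 encodes the fast cardiac form and Myh7 the form shared by slow skeletal fibres and heart. Myh7b encodes a related slow-type form. Each of these genes carries a microRNA in an intron, so that the microRNA is made from the host gene's transcript. In skeletal muscle, miR-208b and miR-499 are known for favouring the slow fibre programme by repressing genes that oppose it, such as Sox6, whereas miR-208 (now called miR-208a) is mainly cardiac. The receptors PPARα and PPARβ bind fatty acids and drive transcription of genes for burning them.

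The mature sequences are shown because they carry the relation between the members. The assay names give no arm, and the arm printed is the one that the plain name customarily stands for. The sequences are those of RefSeq on GRCm38.p6, which matched 3 of 3 members, and the capitals mark the seed, bases 2 to 8, which pairs with target mRNAs.
miR-208: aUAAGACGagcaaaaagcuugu
miR-208b: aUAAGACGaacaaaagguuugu
miR-499: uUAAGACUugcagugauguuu
miR-208 and miR-208b shared their seed and were identical at 19 of 22 bases. Counted from 1 at the 5′ end, with the base of miR-208 first, they differed by G10A, A16G and C18U. miR-499 differed from both over the first 8 bases by A1U and G8U, so the members shared bases 2 to 7. Among 1679 mature mouse microRNA names in the table, these 3 alone had those bases 2 to 7.

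The hairpins are shown for where each mature arm lies, with the arm in capitals.
Mir208a: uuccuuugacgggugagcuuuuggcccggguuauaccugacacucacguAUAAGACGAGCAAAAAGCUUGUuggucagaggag
Mir208b: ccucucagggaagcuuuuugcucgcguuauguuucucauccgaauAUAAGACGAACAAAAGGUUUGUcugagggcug
Mir499: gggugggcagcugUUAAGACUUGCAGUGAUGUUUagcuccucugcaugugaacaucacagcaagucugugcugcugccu
Mir208a lies at chr14:54949060-54949142 on the minus strand, within the span of Myh6. Mir208b lies at chr14:54975700-54975776 on the minus strand, within the span of Myh7. These hairpins are 26.6 kb apart. Mir499 lies at chr2:155622880-155622958 on the plus strand, within the span of Myh7b.

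The assays were spread over 2 cards (A and B) of 384 wells, cycled 40 times, and all 3 members had 1 well each on card A. The reading is the cycle threshold (Ct), the cycle at which fluorescence crosses a set level, so a lower Ct means more RNA. A microRNA was counted as detected below Ct 35. To give a log2 relative abundance, the Ct of a member was subtracted from a card reference, the mean Ct of the 149 card A microRNAs detected in every animal. On that scale 1 unit is a 2-fold difference if template doubles in each cycle. Between 248 and 296 assays were detected per animal. Each animal's median correlation with the others was between 0.933 and 0.974, lowest for MCK-PPARa replicate 1, and NTGb replicate 2 had the most assays detected, 296. The labels call the replicates biological.

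miR-499 was the member measured in every animal, and it fell in MCK-PPARa soleus to a level 12.6-fold below that of the littermates. Its Ct was 27.9, 28.0 and 28.1 in NTGa and 32.05, 32.22 and 31.31 in MCK-PPARa. In NTGb it was 27.5, 27.7 and 27.8, and in MCK-PPARb 27.7, 27.6 and 27.8. The MCK-PPARa animals thus lay more than 3 cycles above all other animals, and the remaining 9 lay within a single cycle of each other.

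**Figure D1:**
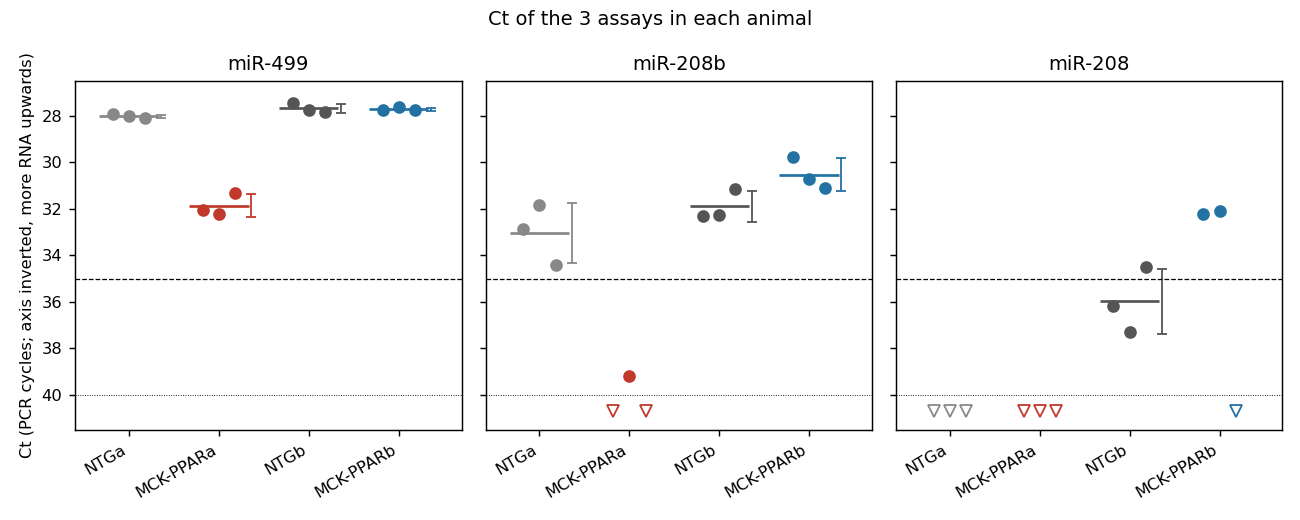
Ct of miR-499, miR-208b and miR-208 in each animal, in PCR cycles on an inverted axis, by group (filled points, 1 per animal; triangles below the line at 40, no Ct). Lines and bars give the mean and SD where all 3 animals had a Ct, and the dashed line is the detection limit of 35; miR-499 in MCK-PPARa sits at 31.3 to 32.2, apart from 27.5 to 28.1 elsewhere.

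On the log2 scale, miR-499 stood at -0.17, -0.35 and -0.17 in NTGa and at -3.99, -4.26 and -3.42 in MCK-PPARa. The groups did not overlap. The mean was -3.89 ± 0.429 (SD, n = 3) against -0.23 ± 0.108, a difference of -3.66 (SE 0.30, 95% interval -4.32 to -2.99, limma adjusted p = 3.94e-05). In this comparison 6 of 268 tested assays, 2.24%, were called at an adjusted p under 0.05, with 1.12% lower and 1.12% higher, and in 10.8% the MCK-PPARa animals lay below every NTGa animal. miR-499 had the lowest p and the largest change in either direction. The next largest fall was -2.35 (miR-135b, named after its value was seen), and the median over all assays was 0.12. An exact permutation test on miR-499 alone gave p = 0.1 (two-sided), the smallest that 3 animals against 3 allow. In whole muscle, fewer cells of a type and less RNA per cell cannot be told apart.

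The size of the fall can be set against the error of a single well. On card B, where 150 assays had a pair of wells, the wells differed by a median of 0.162 Ct at Ct 27 to 29 and of 0.545 Ct at Ct 31 to 33, and 90% of the latter pairs differed by less than 1.34 Ct. Pairs with an empty well were left out of these figures. The miR-499 difference between MCK-PPARa and NTGa was 3.84 Ct before scaling. It was also computed against each endogenous small RNA of card A by itself. It was -3.85 against U6, -3.79 against snoRNA135, -3.53 against snoRNA202, -4.05 against U87 and -3.50 against Y1, with no overlap between the groups for any of them. After the main scaling 10.8% of assays lay lower without overlap, and the share against these small RNAs was not computed. These reference RNAs themselves differed between the groups by -0.21 to 0.35 Ct. Relative to miR-133a, miR-133b and miR-1, the general muscle microRNAs of this card, the fall was -3.64 (SE 0.25, limma adjusted p = 1.42e-05).

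In MCK-PPARb soleus, miR-499 stood at 0.37, 0.38 and 0.37, inside the range of NTGb at 0.93, -0.17 and 0.61. The NTGb values spread more after scaling (SD 0.566) than in Ct (SD 0.192), and the card reference ran from Ct 27.6 to 28.4 over the 12 animals. The difference was -0.08 (SE 0.30, 95% interval -0.75 to 0.59, limma adjusted p = 0.935), and its sign turned with U6, with the endogenous controls and with quantile normalization. The interval leaves out a fall of the size seen in MCK-PPARa but holds falls of up to 0.75 and rises of up to 0.59. In this comparison limma called 0 of 268 assays, 0% (23 assays, 8.58%, had an unadjusted p under 0.05). Set against each other, the effects for miR-499, each transgenic group minus its littermates, differed by -3.58 (SE 0.43, 95% interval -4.52 to -2.63, limma adjusted p = 0.00141). In that test 1.12% of assays were called, 0.746% on the lower and 0.373% on the higher side, and 1 assay had a lower value than miR-499.

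**Figure D2:**
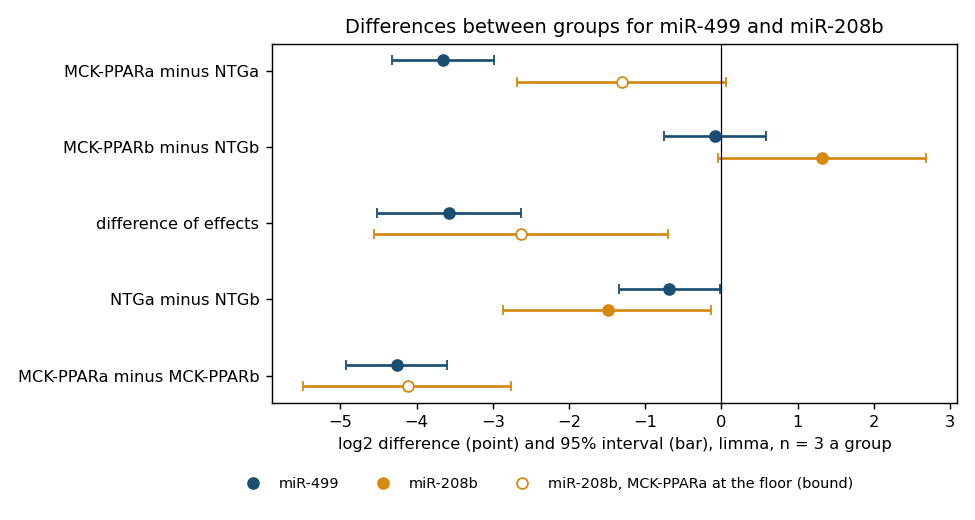
Log2 differences in relative abundance (points) with 95% intervals from limma (bars) for miR-499 and miR-208b in 5 comparisons, n = 3 animals a group. Open points mark miR-208b where MCK-PPARa was at the floor, so that the size is a bound; the miR-499 intervals lie below -2 in the 3 comparisons that involve MCK-PPARa.

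The transgenic groups were also set against each other directly. miR-499 was 19.2-fold lower in MCK-PPARa than in MCK-PPARb (log2 -4.26, SE 0.30, limma adjusted p = 8.44e-06). In this comparison 8 of 268 assays, 2.99%, were called, with 1.87% lower and 1.12% higher. By mean level the order of the groups was NTGb at 0.46, MCK-PPARb at 0.38, NTGa at -0.23 and MCK-PPARa at -3.89. For neighbours in this order other than the last pair, no test passed. MCK-PPARb against NTGa gave 0.61 (SE 0.30, limma adjusted p = 0.335). The controls differed by -0.69 for NTGa against NTGb (SE 0.30, 95% interval -1.35 to -0.02, limma adjusted p = 0.303), a size that was -0.13 against U6. In Ct, all 3 NTGa animals lay above all 3 NTGb animals, by a mean of 0.34 (exact permutation p = 0.1), whereas the scaled values overlapped. Between the controls 1.87% of assays were called, 0.746% lower and 1.12% higher, and 9.70% lay lower in NTGa without overlap after scaling. The share of assays apart in Ct was not computed.

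miR-208b, made from Myh7, was scarce in this soleus and undetected in MCK-PPARa. Its Ct was 32.9, 31.8 and 34.4 in NTGa. In MCK-PPARa, replicates 1 and 3 had no Ct and replicate 2 had 39.2. It was 32.3, 32.3 and 31.1 in NTGb and 29.8, 30.7 and 31.1 in MCK-PPARb. No MCK-PPARa animal thus had a Ct below 35, where all 9 others did. Every MCK-PPARb animal was below every NTGb animal in Ct, but MCK-PPARb replicate 3 and NTGb replicate 3 stood at 31.094 and 31.132. That gap is far smaller than the median of 0.545 Ct between paired wells of card B at Ct 31 to 33. The share of all assays apart in Ct was not computed.

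Undetected values were set to a floor of -6.56 on card A, so miR-208b in MCK-PPARa has only a bound. Its relative abundance was -5.10, -4.18 and -6.48 in NTGa, the last of these close to the floor. The mean was -5.25 ± 1.16 (SD, n = 3), so miR-208b in MCK-PPARa was at least 2.48-fold lower. This did not pass (log2 -1.31 or lower, SE 0.62, limma adjusted p = 0.334). The mean of NTGa was 1.31 above the floor, so a larger fall than that could not be measured. The difference passed when the detection limit was moved to Ct 38 (-4.31, adjusted p = 0.00622), when no limit was set (-6.51, adjusted p = 5.6e-04) and against NTGb (-2.80, adjusted p = 0.0356). The first of these sizes depends on where the floor was put, and the second counts empty wells as Ct 40.

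In MCK-PPARb, miR-208b stood at -1.64, -2.72 and -2.96 against -3.90, -4.69 and -2.69 in NTGb. After scaling the groups overlapped through NTGb replicate 3, and 10.8% of assays lay higher in MCK-PPARb without overlap. The difference was 1.32 (SE 0.62, 95% interval -0.05 to 2.69, limma adjusted p = 0.532), which did not pass. It was 0.86 without NTGb replicate 2. Its rank among the 268 assays was 6 from the top by size and 27 by p. The exact permutation p was 0.3 on the log2 scale and 0.1 in Ct.

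The direct comparison of the transgenic groups was the one where miR-208b passed. It was at least 17.4-fold lower in MCK-PPARa than in MCK-PPARb (log2 -4.12 or lower, limma adjusted p = 0.00278), with no overlap. In this comparison 10.8% of assays lay lower without overlap. miR-499 and miR-208b had the largest falls of all 268 assays there, at -4.26 and -4.12. The MCK-PPARa values of miR-208b are all at the floor and so add no spread, which may make its p too small. At a detection limit of Ct 32 the difference was -1.12 and did not pass (adjusted p = 0.101). The littermates lay the same way round, with NTGa against NTGb at -1.49 (SE 0.62, limma adjusted p = 0.285), a difference that did not pass. It was -0.83 without NTGa replicate 3, -0.98 without NTGb replicate 3, -2.03 without NTGa replicate 2 and -0.29 at a detection limit of Ct 32. The difference of the effects, -2.63 or lower, did not pass either (SE 0.87, limma adjusted p = 0.236), and it passed with U6 as reference (-3.36, adjusted p = 0.0451).

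**Figure D3:**
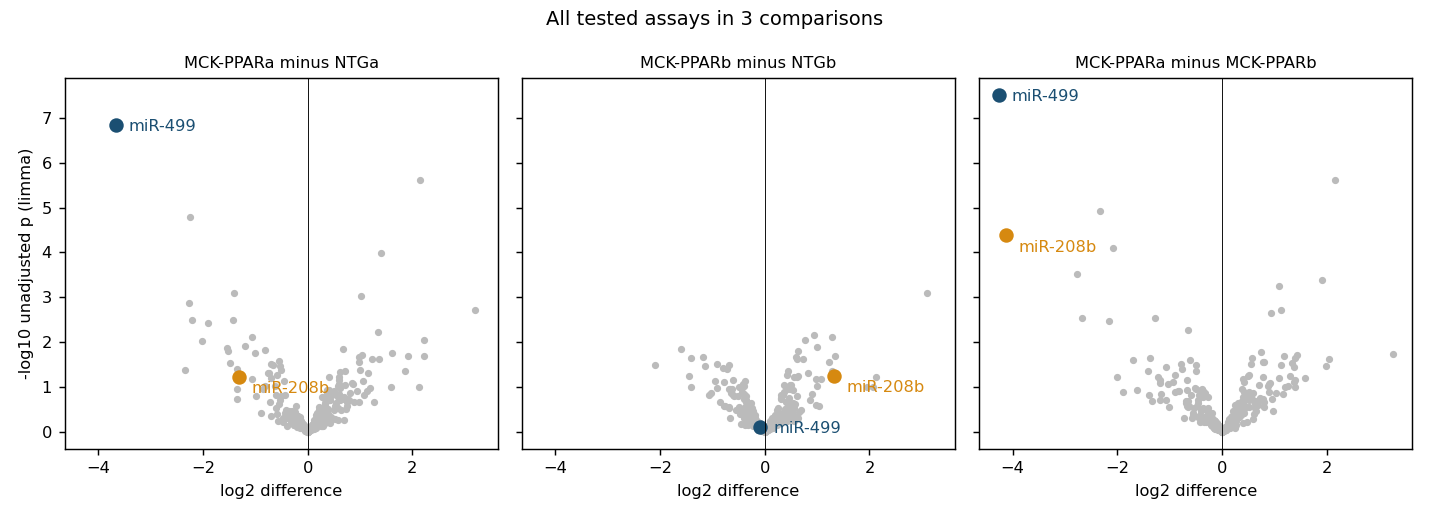
Log2 difference (x axis) against -log10 of the unadjusted limma p (y axis) for the 268 tested assays in 3 comparisons; grey points are other assays. miR-499 lies farthest out in both comparisons with MCK-PPARa and near 0 in MCK-PPARb minus NTGb. In the direct comparison miR-208b comes near it in log2 difference but not in p. Where MCK-PPARa is compared, miR-208b was at the floor there, so its log2 difference is a bound.

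miR-208, made from the cardiac gene Myh6, was at or below the detection limit in most animals. No animal of NTGa or MCK-PPARa had a Ct. In NTGb it was 36.2, 37.3 and 34.5, and in MCK-PPARb 32.2 and 32.1, with no Ct in replicate 3. It was thus detected in 3 of 12 animals and was not tested across assays, since no group had all 3 animals detected. A Ct of any size was present in 5 of 6 animals of the PPARb line and in 0 of 6 of the PPARa line. Of all 584 assays, miR-208 was the only one with a Ct in at least 5 of 6 animals of a line and none in the other, a pattern looked for after the values were seen. Counting an empty well as Ct 40, MCK-PPARb and NTGb differed by -1.21 Ct (exact permutation p = 0.8), and NTGa was above NTGb by 4.01 Ct (exact permutation p = 0.1).

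The 2 MCK-PPARb animals with the lowest Ct for miR-208b, replicates 1 and 2, were those with a miR-208 Ct near 32. Among the NTGb animals, replicate 3 had the lowest Ct for both. For miR-208b, MCK-PPARb replicates 2 and 3 stood at 30.73 and 31.09. They were closer than the median of 0.542 Ct between paired wells at Ct 29 to 35, so their order is not resolved. At Ct 33 to 35 the wells of a pair on card B differed by a median of 0.915 Ct, so single readings of miR-208 in NTGb are imprecise. Pairs with an empty well were left out, so this median may understate the error. With no filter on assays, miR-208 in MCK-PPARb against NTGb stood at 1.47 (SE 0.58, limma adjusted p = 0.919), with NTGa and MCK-PPARa at the floor. Without MCK-PPARb replicate 3, the animal with no Ct, miR-208 entered the fit and passed at 2.28 (SE 0.23, limma adjusted p = 5.62e-04). It met the filter only through MCK-PPARb, the group where it was high, so this p gives no independent support for a difference. Its outcome thus turned on 1 empty well. The groups at the floor add no spread, which may make this p too small.

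The members were then read beside the other muscle-enriched microRNAs. As background, miR-133a, miR-133b and miR-1 are expressed across striated muscle and act in muscle growth and differentiation. miR-206 is typical of skeletal muscle and high in the soleus, miR-486 is made from Ank1, and miR-378 and miR-378* are the arms of a hairpin in Ppargc1b, a coactivator gene of oxidative metabolism. The muscle microRNAs were abundant, with Ct 20.5 to 21.3 for miR-1, up to 17.5 for miR-133a, 20.7 to 21.1 for miR-133b and up to 18.9 for miR-206 over the 12 animals.

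Of the 10 microRNAs of this list, 9 were tested. In MCK-PPARa against NTGa, 1 was called lower (miR-499) and 0 higher, where 1.12% of all assays were called lower and 1.12% higher. The list's median was 0.13 against 0.12 for all assays. The 7 that are not myosin-gene microRNAs ranged from -0.11 for miR-1 to 0.68 for miR-486. None of these 7 passed, and the largest, miR-486, had an adjusted p of 0.206 (SE 0.23, limma). The list holds the mouse assay of miR-1. A second miR-1 assay, named for the rat (rno-miR-1), stood at -0.589 (SE 0.272, limma adjusted p = 0.321), which did not pass. There every MCK-PPARa animal lay below every NTGa animal, as in 10.8% of all assays. In MCK-PPARb against NTGb 0 of the 9 were called, where 0% of all assays were called. The same 7 of the list ranged from -0.28 to 0.25, and the list's median was 0.14 against 0.02 for all assays. In MCK-PPARa against MCK-PPARb, 2 of 9 were called lower, miR-499 and miR-208b, and 0 higher, where 1.87% of all assays were called lower and 1.12% higher. miR-486 stood at 0.94 there (SE 0.23, limma adjusted p = 0.0583).

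**Figure D4:**
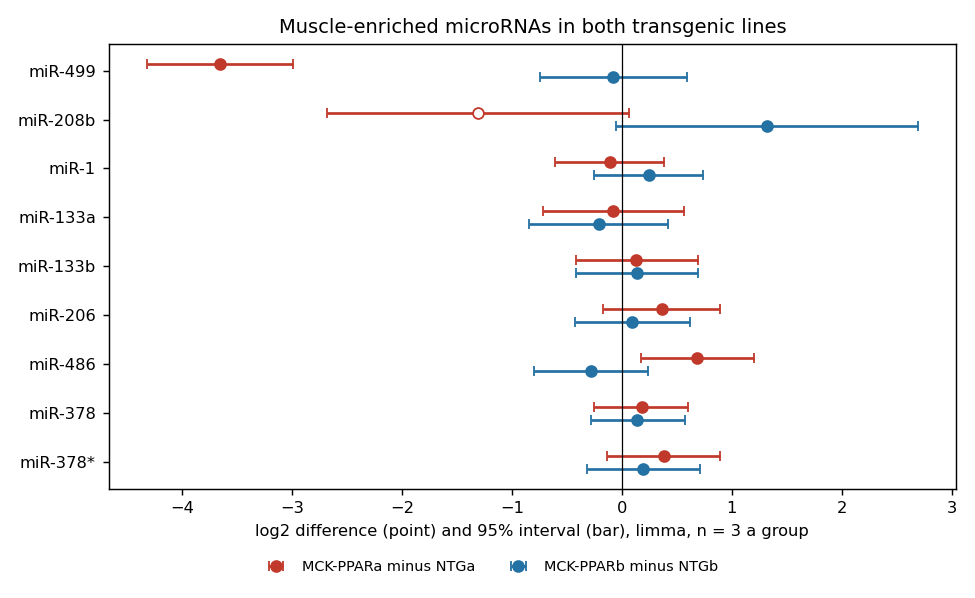
Log2 difference (points) and 95% interval from limma (bars) of the 9 tested muscle-enriched microRNAs in MCK-PPARa minus NTGa and MCK-PPARb minus NTGb, n = 3 animals a group; the open point is a bound. miR-499 in MCK-PPARa, at -3.66, stands apart from the 7 other muscle microRNAs (miR-1 by its mouse assay), which lie between -0.28 and 0.68 in both comparisons.

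Markers of other cells were read in the same way. The endothelial, erythroid, leukocyte, smooth muscle and fibroblast, neural and epithelial lists and the 4 general muscle microRNAs had 20 tested members, of which 0 were called in MCK-PPARa or in MCK-PPARb against their littermates, where 2.24% and 0% of all assays were called, so the count shows nothing particular to these lists. The log2 of the summed level of the general muscle microRNAs was 11.38 to 11.56 in NTGa and 11.50 to 11.57 in MCK-PPARa. It was 11.23 to 12.16 in NTGb and 11.66 to 11.82 in MCK-PPARb. Such a sum is weighted towards the abundant members, and it mixes cards, since miR-206 was scaled to the reference of card B. The same quantity for endothelial microRNAs was 8.95 to 9.15 in NTGa and 8.86 to 9.18 in MCK-PPARa, while the single assays stood at 0.27 for mmu-miR-126-3p (limma adjusted p = 0.737) and -0.85 for mmu-miR-126-5p (limma adjusted p = 0.443). For leukocyte microRNAs it was 5.01 to 5.33 and 5.04 to 5.40. Erythroid miR-451 was at -1.61 to -0.98 and -1.09 to -0.06. The list medians farthest from 0 were 0.75 for the 2 tested neural microRNAs in MCK-PPARa against NTGa and 1.08 for the 2 tested epithelial ones in MCK-PPARb against NTGb, with no member called. The part of these lists in the miR-499 and miR-208b values was not tested. For each of the 7 lists the summed ranges of MCK-PPARa and NTGa overlapped, and liver miR-122 was below the level needed for the test.

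The microRNAs whose level was most like that of miR-499 were sought among 200 assays above the floor in all 12 animals. The likeness is Pearson's r across the animals, given as a description. It was highest for miR-190b at 0.94, followed by miR-93* at 0.82, miR-99b* at 0.76, miR-547 at 0.73 and miR-106a at 0.71. Since the MCK-PPARa animals stand apart, r was also computed without them. Over the other 9 animals it was 0.58 for miR-190b, 0.17 for miR-93*, 0.38 for miR-99b*, 0.63 for miR-547 and -0.21 for miR-106a. With each group's mean removed, over the 12 animals, it was 0.07 for miR-190b, 0.08 for miR-93*, 0.40 for miR-99b*, 0.22 for miR-547 and -0.21 for miR-106a, so little of the likeness of miR-190b lay within groups.

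miR-190b had a Ct of 27.7, 27.8 and 27.7 in NTGa and of 28.8, 30.2 and 30.4 in MCK-PPARa. Its relative abundance was 0.98, 1.11 and 0.86 against -0.67, -1.34 and -1.78, a fall of 2.25 (limma adjusted p = 0.00148). These values are of the mouse assay. A second assay, named for the rat (rno-miR-190b), stood at -2.206 (SE 0.584, limma adjusted p = 0.087), which did not pass. Within MCK-PPARa, the animal with the highest miR-499 had the lowest miR-190b by the mouse assay. miR-93*, miR-99b* and miR-106a had smaller values in MCK-PPARa against NTGa, of -0.55, -1.05 and -0.53, which did not pass (limma adjusted p = 0.247, 0.351 and 0.266). miR-547 stood at -0.70 (limma adjusted p = 0.34) and was highest in MCK-PPARb, at -0.12 ± 0.231 (SD, n = 3).

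**Figure D5:**
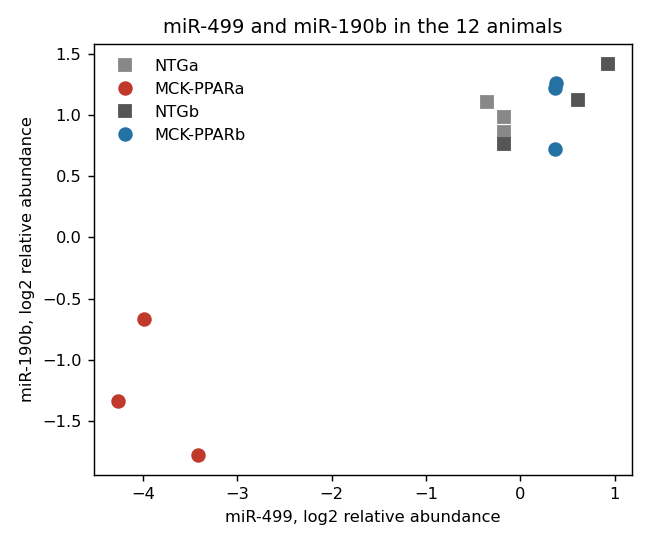
Log2 relative abundance of miR-499 (x axis) and miR-190b (y axis) in the 12 animals, 1 point each, coloured by group. The 3 MCK-PPARa animals lie below -3 for miR-499 and below 0 for miR-190b, apart from the other 9.

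At the opposite end were miR-192 at -0.86, miR-34a at -0.80, miR-486 at -0.77, miR-652 at -0.74 and miR-194 at -0.71. miR-192 and miR-194 come from shared clusters and are abundant in liver and gut. Both passed in MCK-PPARa against NTGa, at 1.01 (limma adjusted p = 0.0425) and 1.40 (limma adjusted p = 0.00688). miR-34a, whose gene is activated by p53, stood at 1.04, miR-652 at 0.87 and miR-486 at 0.68, none of which passed. Without MCK-PPARa the 5 values of r became -0.25, -0.29, 0.38, -0.58 and 0.34, so that the sign turned for miR-486 and miR-194. With group means removed they were 0.52, -0.17, 0.59, -0.43 and -0.41, the sign turning for miR-192 and miR-486.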

How the data were processed

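The authors deposited 1 Ct per well, a score in PCR cycles without normalization, and cells are empty for wells with no Ct. Per the labels' protocols, RNA was extracted with RNAzol B and read as TaqMan assays with a FAM label on a 7900HT instrument for 40 cycles. The software, threshold and baseline were not given in the sources used here. All columns were matched to samples by name. Repeated wells were averaged, an empty well beside a called one counting as Ct 40.

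Each card was scaled to the mean Ct of microRNAs detected (Ct under 35) in all 12 animals, 149 on card A and 59 on card B. Undetected values, and any below it, were set after scaling to the highest level at which Ct 35 fell in any animal, -6.56 on card A and -5.66 on card B. An assay was tested if at least 1 group had all 3 animals detected, which held for 268. Group means over the 12 animals were fitted with limma 3.58.1 in R 4.3.3 (lmFit, eBayes; 8 residual degrees of freedom), with two-sided p-values and Benjamini-Hochberg adjustment across all 268 assays. The comparisons share groups and are not independent. Single values were compared with an exact permutation test, which for 3 against 3 cannot give a p under 0.1.

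Alternatives changed the reference, the detection limit, the treatment of undetected values, the filter, the spread model, the control group and the animals; leaving out NTGb replicate 2 and MCK-PPARa replicate 1 together was added after the data were seen. Named microRNAs were the members, the muscle-enriched list and the 5 assays most and the 5 least correlated with miR-499. The members and lists were chosen with earlier results of these data known. Replicate numbers are shared across groups, but the labels give no common litter or run.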

Additional observations from a re-analysis of the deposited data

Results flagged for a closer look

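For miR-499, the difference from littermates was not the same in the PPARa and PPARb lines. A test of the difference itself gave log2 -3.58 (SE 0.43, limma adjusted p = 0.00141). Transgene and line cannot be told apart in this design. All 3 MCK-PPARa animals were below all 3 NTGa animals, as in 10.8% of assays. The MCK-PPARb animals lay within the range of NTGb.

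miR-208 gave a signal outside the fit, since too few animals were detected for it to be tested. Its lowest Ct in MCK-PPARb was 32.1, below the 34.5 to 37.3 of the NTGb controls, in 2 of 3 animals, and the remaining animal had no Ct.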

How the results depend on the processing

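miR-499 in MCK-PPARa against NTGa kept its direction and call under 31 of 31 alternatives. Many of these could hardly move it from -3.66, since miR-499 was above the main floor in every animal or the animal left out was of the PPARb line. Over the alternatives, miR-499 ran from -3.90 to -3.48 without 1 animal and from -4.34 to -3.28 under the others (limma adjusted p up to 0.0031). Its difference of effects held under 28 of 28 (-4.08 to -3.20), and so did the direct comparison of the transgenic groups under 29 of 29 (-4.49 to -3.89). The smallest sizes, -3.28, -3.20 and -3.89, came at a detection limit of Ct 32. There MCK-PPARa replicates 1 and 2 (Ct 32.05 and 32.22) were set to the floor, so these sizes are bounds. miR-499 in MCK-PPARb never passed. Its sign turned with the endogenous controls (0.02), U6 (0.23), quantile normalization (0.00), NTGa as control (0.61) and all 6 controls (0.26), and without 1 animal it ran from -0.39 to 0.16, the last without NTGb replicate 1. miR-208b in MCK-PPARa against NTGa passed at Ct 38 (-4.31), with no limit (-6.51) and against NTGb (-2.80); at Ct 32 both groups were at the floor and gave no value. Its difference of effects passed with U6 (-3.36), at Ct 38 (-5.63) and with no limit (-7.83), and its direct comparison did not pass at Ct 32 (-1.12). Without 1 animal these ran from -1.96 to -0.77, -3.28 to -2.09 and -4.37 to -3.73, with no change of call. With undetected values missing, or assays detected in all 12 animals, miR-208b in MCK-PPARa had no value. miR-208 was detected in 3 animals, and in 0 at Ct 32, 5 at Ct 38 and 5 with no limit. In MCK-PPARb against NTGb it did not pass at Ct 38 (1.87), with no limit (1.16) or with no filter (1.47). It passed without MCK-PPARb replicate 3 (2.28), where the filter let it in only through the remaining MCK-PPARb animals. Its difference of effects there (-2.28) is no second result. NTGa and MCK-PPARa were at the floor, so it repeats the MCK-PPARb value with the sign turned.

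Over all assays, the number called ran from 3 to 12 in MCK-PPARa against NTGa (6 as reported), 0 to 1 in MCK-PPARb against NTGb (0), 1 to 7 in the difference of effects (3), 0 to 29 between the controls (5) and 5 to 13 between the transgenic groups (8). The 12 came without MCK-PPARb replicate 1 and the 13 without NTGb replicate 2, without which the difference of effects had 6. Between the controls the count was 0 without NTGa replicate 2 or 3, NTGb replicate 1 or 3, MCK-PPARa replicate 3 or MCK-PPARb replicate 2. U6 moved the median of all assays from 0.02 to 0.33 in MCK-PPARb and from -0.03 to 0.49 between the controls. With the replicate number as a block, miR-499 in MCK-PPARa stood at -3.66 (adjusted p = 1.34e-04), and no member's call changed. Deviations of same-numbered animals correlated from -0.29 to 0.22, so the numbers were not taken as pairs. Leaving out NTGb replicate 2 and MCK-PPARa replicate 1 together, an alternative chosen after seeing the data, gave -3.61 for miR-499 in MCK-PPARa and changed no member's call. Precision falls as Ct nears 35, which limits miR-208b and miR-208.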
